A study of Homo sapiens with 7 samples.

Results

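Oncofetal liver genes are transcribed in the fetal liver, are for the most part silent or low in the adult organ, and are switched on again in many hepatocellular carcinomas. The adult pattern need not hold for every gene below, and adult liver was not measured here. The 10 genes described here are AFP, GPC3, DLK1, LIN28B, IGF2BP1, IGF2BP2, IGF2BP3, HMGA2, IGF2 and H19. They were taken by name from the 23710 genes of the expression table, by a rule that uses no measured value. All 10 have a row. DLK1 and IGF2 stood at the floor of the table (a normalized count of 5) in every library, AFP stood just above it, and the other 7 were well above it.

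The measurements are RNA-seq of SNU398, an established human hepatocellular carcinoma line, with 1 library for each of 4 peptides: PEN-FFW, PEN-WT, PEN-MUT and PEN. Every culture received 30 µM of its peptide for 8 hours, so dose and time are matched, and no library without a peptide was analysed here. By the labels and what is known of the work, PEN is penetratin, a carrier sequence that enters cells. PEN-WT joins it to the stretch of the transcription factor SALL4 that binds RBBP4, PEN-MUT is a mutated control of that stretch, and PEN-FFW is an engineered variant of it. The question is how far oncofetal transcripts differ when the peptide carries a SALL4-derived stretch (PEN-FFW or PEN-WT) instead of the mutated stretch or the carrier alone.

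These genes form a partly connected circuit. LIN28B is an RNA-binding protein that blocks the maturation of let-7, a family of small RNAs that rise as fetal cells mature. let-7 pairs through its seed with sites in the 3′ untranslated region (UTR) of target messages and lowers them, and HMGA2, the IGF2BP genes and LIN28B itself are known targets. The IGF2BP proteins bind messages, among them that of the fetal growth factor IGF2, and alter their stability and translation.

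The seed, bases 2 to 8 of the mature small RNA, is the same in all 9 let-7 family members of RefSeq (GRCh38.p14), and it is shown in capitals for a pair of them, since LIN28B acts on these RNAs and the letters searched below are complementary to it.
hsa-let-7a-5p: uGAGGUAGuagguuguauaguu
hsa-miR-98-5p: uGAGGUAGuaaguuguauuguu

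The DNA letters that pair with the seed, CTACCTC, were searched on the sense strand of the canonical 3′ UTR of each member (GENCODE 44 lifted to GRCh37, the build of the files). They occurred 14 times, in 5 of the 10 members, and 8 of these matches continued with an A (CTACCTCA, the 8-letter match, which contains the 7-letter one). LIN28B, IGF2BP1 and HMGA2 held 4 matches each, IGF2BP2 and IGF2BP3 held 1 each, and the UTRs of AFP, GPC3, DLK1 and IGF2 held 0. H19 is a noncoding RNA and has no UTR. The 8-letter matches are shown. Like the 7-letter matches, they lie only in the RNA-binding and chromatin members. Capitals mark the match.
LIN28B, chr6:105526687-105526710, plus strand: acccggttgcaaagtCTACCTCAt
LIN28B, chr6:105529296-105529319, plus strand: gtttacagcaaaaggCTACCTCAt
IGF2BP1, chr17:47128423-47128446, plus strand: tgtgtgcgaagtaaaCTACCTCAa
IGF2BP1, chr17:47131060-47131083, plus strand: cagcagtgctagtaaCTACCTCAc
IGF2BP1, chr17:47131714-47131737, plus strand: gtataaatggattaaCTACCTCAa
IGF2BP2, chr3:185362007-185362030, minus strand: aacacacagaagaagCTACCTCAg
IGF2BP3, chr7:23351413-23351436, minus strand: tgcatttttactcaaCTACCTCAg
HMGA2, chr12:66357078-66357101, plus strand: gccaacgttcgatttCTACCTCAg

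A match is a stretch of letters and was not measured as a bound site. Of the 3′ UTRs of 11692 tested genes, 11.2% held the 7 letters and 4.37% the 8 letters. Longer UTRs hold them more often. Among UTRs within 25% of the length of that of HMGA2 (2999 bases), 14.5% held at least 1 match and 0.0988% held at least 4. For LIN28B (4549 bases) these shares were 22.9% and 0.205%, and for IGF2BP1 (6701 bases) 31.4% and 0.546%. For IGF2BP2 and IGF2BP3, which hold 1 match, the share with at least 1 was 12.6% and 12.5%. Each share counts the member itself, and the UTRs compared numbered 2024 for HMGA2, 1465 for LIN28B and 733 for IGF2BP1. The shares with at least 4 matches therefore rest on very few UTRs, the member's own among them. The 8 letters were held by 5.24% of UTRs of like length for HMGA2, 9.42% for LIN28B and 12.6% for IGF2BP1. For IGF2BP2 and IGF2BP3 these shares were 4.66% and 4.58%. For AFP, GPC3, DLK1 and IGF2 they were 1.29%, 0.855%, 6.09% and 7.48%, so a UTR without the 8 letters was the common case.

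**Figure D1:**
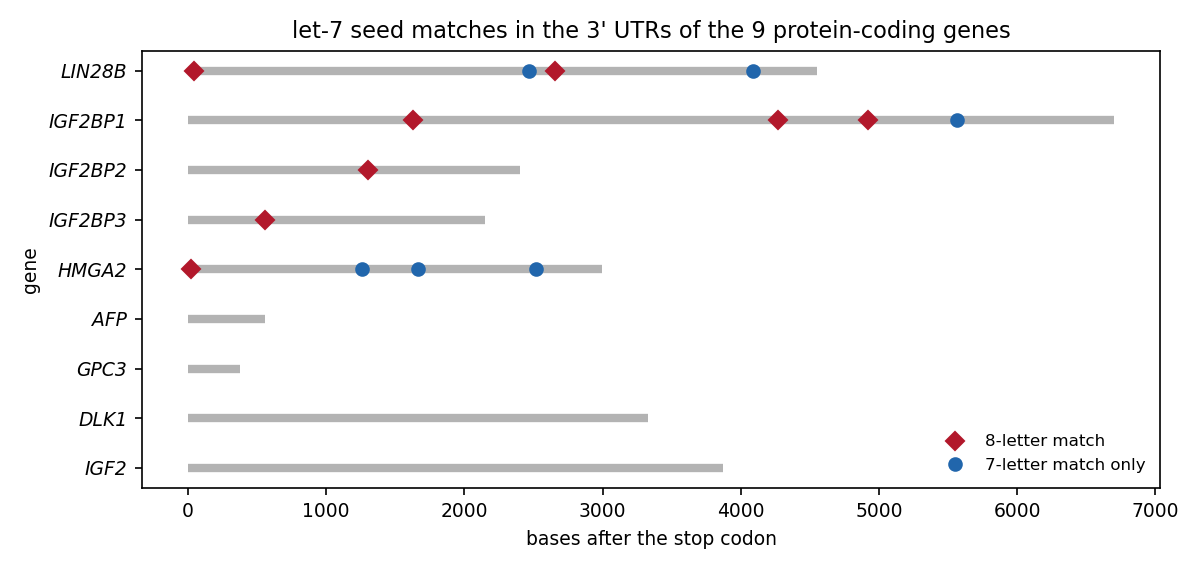
Positions of let-7 seed matches (bases after the stop codon, x axis) along the 3′ UTR (grey bar) of the 9 protein-coding genes; diamonds are 8-letter matches and circles are matches of 7 letters only. The 14 matches lie in LIN28B, IGF2BP1, IGF2BP2, IGF2BP3 and HMGA2, and the UTRs of AFP, GPC3, DLK1 and IGF2 hold 0.

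Facts of the libraries bear on what follows. Reads in genes above the floor were 27347377 for PEN-FFW, 40717633 for PEN-WT, 32043544 for PEN-MUT and 37784093 for PEN. A gene at the floor may have up to 5 reads, or up to 6 in PEN-WT. The PEN-FFW library stands apart: as deposited, its median gene among the 12578 tested genes (those whose normalized count averaged at least 50) was at -0.30 from PEN-MUT, -0.27 from PEN and -0.30 from PEN-WT on the log2 scale, where the other pairs lay between 0.00 and 0.03. Differences are therefore log2(normalized count + 10) of one library minus that of another, relative to the median tested gene of that pair, and ± is the counting error of the reads alone. With 1 library per peptide there is no replicate, no test and no p-value, and all comparisons with one control share its library. In such bulk RNA, fewer cells that carry a transcript and less of it per cell cannot be told apart.

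The line was also set against markers. Of 26 mature hepatocyte genes 17 were at the floor in all 4 libraries, and 2 were tested, ALB (83.1 normalized counts with PEN-FFW, 157 with PEN-WT, 139 with PEN-MUT and 122 with PEN) and TDO2 (916 with PEN-FFW, 1362 with PEN-WT, 1666 with PEN-MUT and 1846 with PEN). Hepatocyte markers above the floor summed to 1086 normalized counts in the PEN-FFW library, against 1617 (PEN-WT), 1909 (PEN-MUT) and 2045 (PEN), and most of each sum was TDO2. Mesenchymal markers were abundant, with 7 of 10 tested and sums between 149677 and 191213, led by COL3A1, VIM and LUM. Of 6 endothelial markers 5 were at the floor in all libraries, as were 6 of 9 immune markers (PTPRC and CD68 were tested) and 4 of 9 cholangiocyte markers (EPCAM was tested). The liver tumour line of the labels thus had few adult liver transcripts. The part of the marker sums in the members' values was not tested.

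Among the secreted and surface proteins, AFP, the fetal serum albumin that serves as a tumour marker, was close to silent. It lies on chromosome 4 (74296855 to 74321891, plus strand, GRCh37) and its level was 9.23 normalized counts with PEN-FFW, 7.76 with PEN-WT, 11 with PEN-MUT and 9.24 with PEN. These values rest on 10 reads each for PEN-FFW and PEN-WT and 11 each for PEN-MUT and PEN, and every exact Poisson interval holds all 4 values (for PEN-FFW 4.43 to 17.0, for PEN 4.61 to 16.5). No difference in AFP was detectable at this depth, and it fell under the filter for tested genes. DLK1, an imprinted membrane protein of hepatoblasts (chromosome 14, 101192042 to 101204561), was at the floor in every library. MEG3, the maternally expressed RNA of the same imprinted domain, had 13.8 normalized counts with PEN-FFW, 9.32 with PEN-WT, 9 with PEN-MUT and 9.24 with PEN.

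GPC3 was the only surface member expressed at a substantial level. It codes for a heparan sulphate proteoglycan of the cell surface that is a target for therapy in this cancer (chromosome X, 132669773 to 133121127, minus strand). Its level was 998 normalized counts with PEN-FFW, 1253 with PEN-WT, 1281 with PEN-MUT and 1250 with PEN. PEN-FFW was the low library, and the other 3 lay within each other's Poisson intervals. Relative to the median gene PEN-FFW was within counting error of the controls: the difference from PEN-MUT was -0.06 ± 0.06 (95% counting interval -0.17 to 0.06) and that from PEN was -0.05 ± 0.06. PEN-WT was at -0.03 ± 0.05 from both PEN-MUT and PEN.

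**Figure D2:**
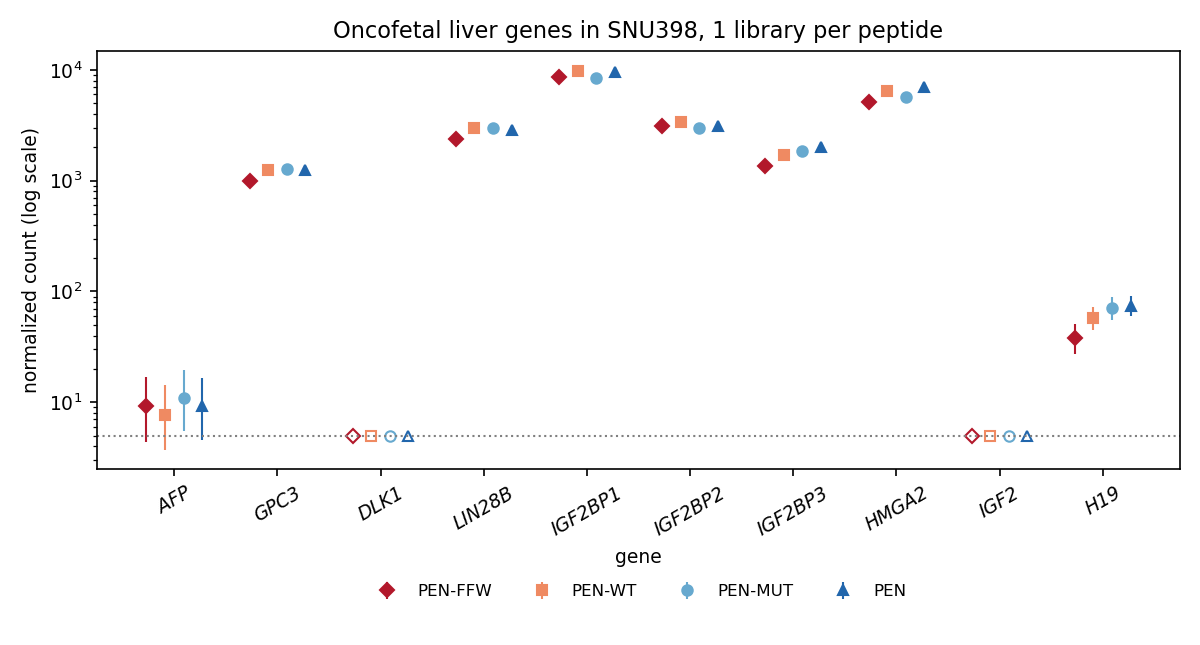
Normalized counts (log scale) of the 10 genes in the PEN-FFW, PEN-WT, PEN-MUT and PEN libraries, 1 library each, with exact 95% Poisson intervals (counting error only); open symbols on the dotted line are values at the floor of 5. DLK1 and IGF2 are at the floor in all 4 libraries, AFP lies between 7.76 and 11, and IGF2BP1 reaches 9843.

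The RNA-binding members were all expressed in every library. LIN28B (chromosome 6, 105384491 to 105531207, plus strand) had 2378 normalized counts with PEN-FFW, 2991 with PEN-WT, 3003 with PEN-MUT and 2868 with PEN. LIN28B was the tested member with the most even profile relative to the median gene (as deposited, the counts of IGF2BP2 and IGF2BP1 varied less): its 3 relative differences from PEN spanned 0.04, from 0.00 ± 0.04 in PEN-FFW and 0.03 ± 0.03 in PEN-WT to 0.05 ± 0.04 in PEN-MUT. Against PEN-MUT it stood at -0.04 (-0.11 to 0.04) in PEN-FFW and -0.01 (-0.07 to 0.06) in PEN-WT. Its paralogue LIN28A, the embryonic stem cell form, was near the floor, with 17.5 normalized counts for PEN-FFW, 10.9 for PEN-WT, 9 for PEN-MUT and 11.8 for PEN. LIN28B-AS1, which overlaps the start of LIN28B on the other strand, had at most 22 reads.

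IGF2BP1 (chromosome 17, 47074747 to 47133507, plus strand) was the member with the highest count. It had 8569 normalized counts with PEN-FFW, 9843 with PEN-WT, 8505 with PEN-MUT and 9560 with PEN. PEN-MUT and PEN-FFW were the low libraries and did not differ beyond counting error as deposited. After recentring IGF2BP1 stood above PEN-MUT in PEN-FFW (0.31 ± 0.02) and PEN-WT (0.21 ± 0.02). Against PEN the differences were 0.11 ± 0.02 in PEN-FFW (-0.16 as deposited, without recentring) and 0.01 ± 0.02 in PEN-WT, with PEN-MUT at -0.19 ± 0.02. The 2 controls thus differed from each other about as much as PEN-WT differed from PEN-MUT.

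IGF2BP2 (chromosome 3, 185360918 to 185542830, minus strand) had 3103 normalized counts with PEN-FFW, 3417 with PEN-WT, 2983 with PEN-MUT and 3094 with PEN. PEN-WT was highest. Relative to the median gene PEN-FFW and PEN-WT lay above both controls: PEN-FFW by 0.35 ± 0.04 over PEN-MUT and 0.27 ± 0.03 over PEN, and PEN-WT by 0.19 ± 0.03 and 0.11 ± 0.03. As deposited, the PEN-FFW differences were 0.06 from PEN-MUT and 0.00 from PEN. The antisense gene IGF2BP2-AS1, listed under the older symbol C3orf65 and lying inside IGF2BP2 (185430316 to 185447575, plus strand), had its highest count with PEN-FFW: 54.5 normalized counts, against 5.43 with PEN-WT, 11 with PEN-MUT and 7.56 with PEN. The PEN-FFW value is 59 reads, few beside the 3361 reads of IGF2BP2 in that library. Without a known strand setting, reads of this pair of genes cannot be told apart.

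IGF2BP3 (chromosome 7, 23349828 to 23510110, minus strand) followed another order. It had 1355 normalized counts with PEN-FFW, 1690 with PEN-WT, 1837 with PEN-MUT and 1999 with PEN. As deposited, its Poisson intervals do not overlap between PEN-FFW (1287 to 1426), PEN-WT (1620 to 1762) and PEN (1920 to 2081). The share of all tested genes without such overlap was not computed. PEN-FFW stood at -0.32 from PEN-WT as deposited, where the median tested gene was at -0.30. After recentring this difference was -0.02 ± 0.05. Relative to the median gene it was lower than PEN with PEN-FFW (-0.29 ± 0.05), with PEN-WT (-0.27 ± 0.04) and with the mutated control (-0.14 ± 0.04). Against PEN-MUT it stood at -0.14 ± 0.05 in PEN-FFW and -0.12 ± 0.05 in PEN-WT. Transcripts of the same GC content as IGF2BP3 (40.5%, against a median of 48.3% for tested genes) were themselves lower in PEN-FFW. Set against those, the PEN-FFW difference was -0.06 from PEN-MUT and -0.20 from PEN, and PEN-WT stood at -0.08 and -0.23. MALSU1, a mitochondrial ribosome factor whose gene overlaps the end of IGF2BP3 on the other strand, had 356 normalized counts with PEN-FFW, 501 with PEN-WT, 533 with PEN-MUT and 528 with PEN. In PEN-FFW these are 386 reads, beside 1468 of IGF2BP3. As the strand setting is unknown, reads from the overlap cannot be told apart. Their part in the level and share of IGF2BP3 was not tested.

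The balance among the IGF2BP genes does not depend on how libraries are scaled. IGF2BP3 took 10.4% of the reads of the 3 genes with PEN-FFW (95% Wilson interval 9.91 to 10.9), 11.3% with PEN-WT (10.9 to 11.8), 13.8% with PEN-MUT (13.2 to 14.4) and 13.6% with PEN (13.1 to 14.2). Both SALL4-derived peptides were below both controls with no overlap of intervals, while the controls overlapped. How often shares within other sets of genes separate likewise was not computed. The GC content of IGF2BP3 is 40.5%, against 49.1% for IGF2BP1 and 48.9% for IGF2BP2. The part of GC content in the shares was not tested. IGF2BP2 took 23.8% with PEN-FFW (23.1 to 24.5), 22.9% with PEN-WT (22.3 to 23.5), 22.4% with PEN-MUT (21.7 to 23.1) and 21.1% with PEN (20.5 to 21.7). For IGF2BP2 the PEN-FFW share lay above those of both controls, by the narrowest margin over PEN-MUT, while the interval of PEN-WT overlapped those of PEN-FFW and PEN-MUT. IGF2BP1 took 65.8% with PEN-FFW, 65.8% with PEN-WT, 63.8% with PEN-MUT and 65.2% with PEN. These intervals cover counting error only, and the spread between cultures is unknown. Divided by transcript length, IGF2BP3 made up 15.7% of the 3 with PEN-FFW, 17.1% with PEN-WT, 20.5% with PEN-MUT and 20.5% with PEN.

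**Figure D3:**
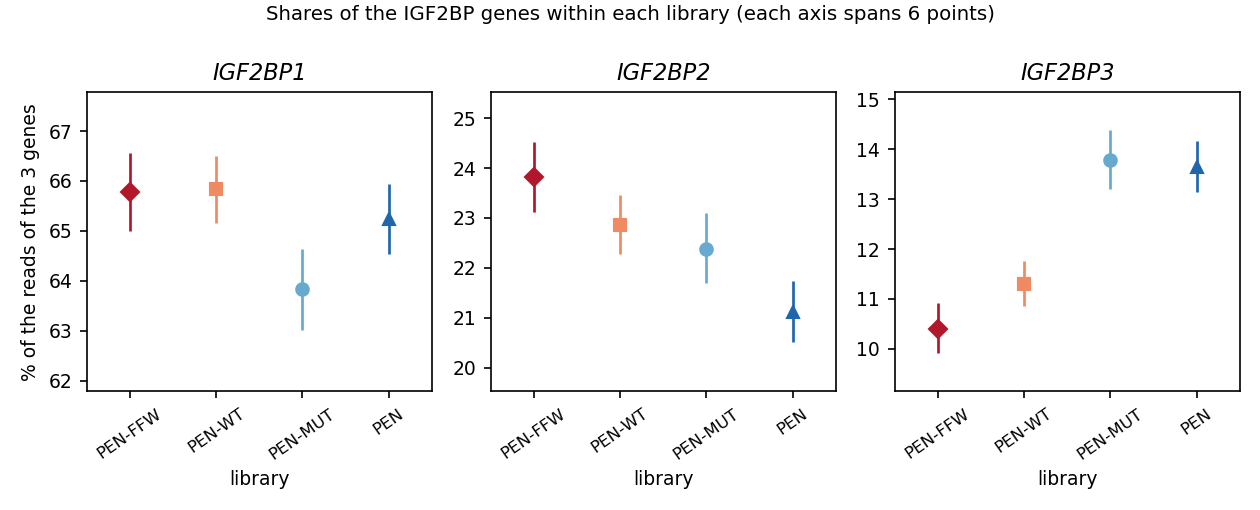
Share (%) of the reads of IGF2BP1, IGF2BP2 and IGF2BP3 taken by each gene in the PEN-FFW, PEN-WT, PEN-MUT and PEN libraries, with 95% Wilson intervals (counting error only); each axis spans the same range but starts above 0. IGF2BP3 lies at 10.4% and 11.3% in PEN-FFW and PEN-WT, and at 13.8% and 13.6% in PEN-MUT and PEN.

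HMGA2, a chromatin protein that bends DNA and is abundant in the embryo (chromosome 12, 66218240 to 66360071, plus strand), had 5137 normalized counts with PEN-FFW, 6429 with PEN-WT, 5722 with PEN-MUT and 6940 with PEN. As deposited, no pair of these had overlapping Poisson intervals, and PEN was highest. The share of all tested genes without such overlap was not computed. PEN-FFW stood at -0.32 from PEN-WT as deposited, where the median tested gene was at -0.30. After recentring this difference was -0.02 ± 0.02. Relative to the median gene all 3 other libraries were below PEN, with PEN-FFW at -0.16 ± 0.02, PEN-WT at -0.14 ± 0.02 and PEN-MUT at -0.30 ± 0.02. Against PEN-MUT the sign was the opposite, with 0.14 ± 0.03 in PEN-FFW (-0.16 as deposited, without recentring) and 0.17 ± 0.02 in PEN-WT. For HMGA2 the direction therefore changed with the control chosen. RPSAP52, which overlaps its start on the other strand, had between 22 and 54 reads. HMGA1, the other gene of the family, had 4945 normalized counts with PEN-FFW, 7568 with PEN-WT, 6718 with PEN-MUT and 6956 with PEN, which put PEN-FFW at -0.14 ± 0.03 and PEN-WT at 0.17 ± 0.02 from PEN-MUT.

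At the imprinted locus on chromosome 11, IGF2 (2150342 to 2179621, minus strand) was at the floor with all 4 peptides. So were INS-IGF2 and IGF2-AS, which overlap it, and MIR483, which lies inside it. The floor allows IGF2 at most 5 reads with PEN-FFW, 6 with PEN-WT, 5 with PEN-MUT and 5 with PEN. How the authors' counting treated reads shared by overlapping genes is not given in the sources used here, so reads of IGF2 could have gone uncounted. H19, the maternally expressed noncoding RNA of the locus (2016396 to 2025782, minus strand), was low but present, with 37.9 normalized counts with PEN-FFW, 57.4 with PEN-WT, 71 with PEN-MUT and 74.7 with PEN. MIR675, the small RNA made from H19, was listed at the floor in all libraries.

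H19 had the widest spread among the tested members. Its values rest on 41 reads with PEN-FFW, 74 with PEN-WT, 71 with PEN-MUT and 89 with PEN. The Poisson interval of PEN-FFW (27.2 to 51.3) lies below those of PEN-MUT (55.5 to 89.6) and PEN (60.0 to 92.0) and overlaps that of PEN-WT (45.1 to 72.1). Relative to the median gene PEN-FFW stood at -0.46 ± 0.23 from PEN-MUT (95% counting interval -0.92 to -0.0046) and at -0.55 ± 0.22 from PEN (-0.99 to -0.12). PEN-WT stood at -0.26 ± 0.21 from PEN-MUT and -0.36 ± 0.20 from PEN, both with intervals that include 0, and PEN-MUT at -0.09 ± 0.20 from PEN. Of all tested genes, 0.326% had a lower PEN-FFW difference from PEN-MUT than H19, and 0.604% a lower one from PEN, a rank that takes no account of its larger counting error. The pseudocount of 10 shrinks differences of so low a gene, and with a pseudocount of 1 both PEN-FFW differences of H19 passed 1.5-fold.

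At a threshold of 1.5-fold, 0 of the 7 tested members were apart in any of the 6 pairs of libraries. Of all tested genes 7.33% passed it for PEN-FFW against PEN-MUT, 7.68% for PEN-FFW against PEN, 0.914% for PEN-WT against PEN-MUT and 1.20% for PEN-WT against PEN. For PEN-MUT against PEN the share was 0.564%, and for PEN-FFW against PEN-WT 4.20%. At these rates 0 of 7 is near the background and is not a result about the members. Lists below are counted by direction. For PEN-FFW against PEN-MUT 7.24% of tested genes were higher and 0.0875% lower, for PEN-FFW against PEN 7.24% were higher and 0.437% lower, and for PEN-WT against PEN-MUT 0.898% were higher and 0.0159% lower. The 3 untested members, AFP, DLK1 and IGF2, had too few reads to count. The median of the 7 relative differences was -0.04 for PEN-FFW against PEN-MUT (range -0.46 to 0.35), -0.05 against PEN (-0.55 to 0.27), -0.01 for PEN-WT against PEN-MUT (-0.26 to 0.21) and -0.03 against PEN (-0.36 to 0.11), where the median of all tested genes is 0 by construction. The median absolute difference was 0.14 over the members and 0.16 over all tested genes for PEN-FFW against PEN-MUT, and 0.17 and 0.09 for PEN-WT against PEN-MUT. Against PEN these values were 0.16 and 0.17 for PEN-FFW, 0.11 and 0.11 for PEN-WT, and 0.09 and 0.09 for PEN-MUT. For PEN-FFW against PEN-WT they were 0.03 and 0.11. The median over the members thus lay clearly above the background only for PEN-WT against PEN-MUT. For PEN-WT against PEN the values were nearly equal (0.112 and 0.110). Each median rests on 7 genes and 1 library per peptide, and the excess was not tested.

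**Figure D4:**
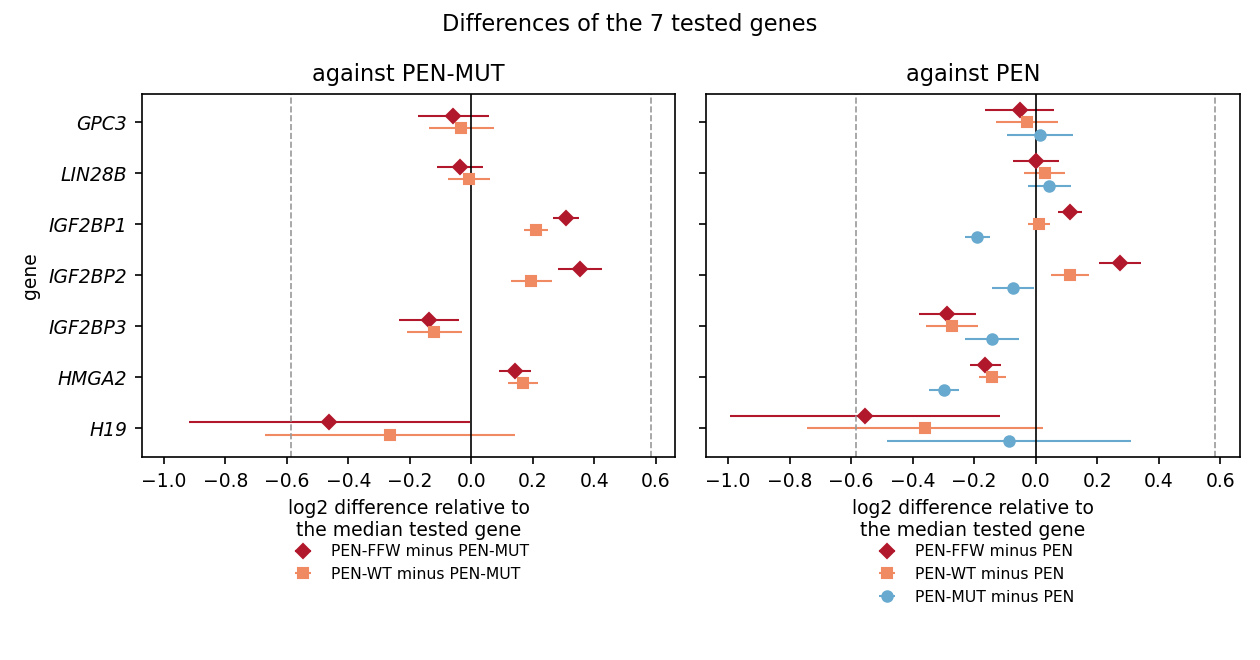
Relative log2 difference (x axis) of the 7 tested members against PEN-MUT (left) and PEN (right), with PEN-FFW as diamonds, PEN-WT as squares and PEN-MUT as circles; bars span 95% counting intervals and dashed lines mark 1.5-fold. Every point lies between the dashed lines, from -0.55 for H19 to 0.35 for IGF2BP2, and HMGA2 is right of 0 against PEN-MUT and left of 0 against PEN.

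PEN-FFW and PEN-WT, which differ in the engineered part of the SALL4 stretch, were compared directly for the 7 tested members (no p-value exists to adjust). IGF2BP2 was higher in PEN-FFW by 0.16 (95% counting interval 0.10 to 0.23) and IGF2BP1 by 0.10 (0.06 to 0.14), but as deposited, without recentring, they stood at -0.14 and -0.20. After recentring the other five had intervals that include 0: GPC3 -0.13 to 0.09, LIN28B -0.10 to 0.04, IGF2BP3 -0.11 to 0.08, HMGA2 -0.07 to 0.03 and H19 -0.64 to 0.25. As deposited, these genes were all lower in PEN-FFW, with GPC3 at -0.33, LIN28B at -0.33, IGF2BP3 at -0.32, HMGA2 at -0.32 and H19 at -0.50, where the median tested gene was at -0.30. For H19 the interval is wide enough to hold a 1.5-fold difference.

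Between genes, levels were compared as normalized counts per kb of the canonical transcript, averaged over the 4 libraries. HMGA2 led with 1471 per kb (1248 to 1686 over the libraries), followed by IGF2BP1 with 1037 (967 to 1119) and IGF2BP2 with 735 (696 to 798). These ranges do not overlap. GPC3 (527, range 440 to 565), LIN28B (516, range 437 to 551) and IGF2BP3 (403, range 317 to 468) overlapped one another, H19 had 54.5 and AFP 3.84. Among 12093 tested genes with a length, HMGA2 stood at percentile 87.1, IGF2BP1 at 81.0 and IGF2BP3 at 55.9. The order depends on the length used: with the union of all annotated exons HMGA2 had 402 per kb and came after IGF2BP1 (947), IGF2BP2 (591) and LIN28B (473).

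The genes whose profile over the libraries was nearest to a member were found by the Euclidean distance of 3 relative differences from PEN, for the members of widest and narrowest range. Nearest to H19 among 12333 genes were RPF2 (distance 0.012), SLC25A15 (0.038) and YRDC (0.068), each with a PEN-FFW difference from PEN between -0.55 and -0.53. Nearest to LIN28B among 8760 genes were MARK3 (0.0091), PHACTR2 (0.011) and FAM217B (0.012). The distances are far below the counting error of H19, so other genes could take these places.

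The let-7 pathway around LIN28B was described from a list of 32 genes, of which 18 were tested besides LIN28B. At 1.5-fold, 1 was higher and 0 were lower in PEN-FFW against PEN-MUT, and 0 were apart in PEN-WT against PEN-MUT. That gene, named after its values were seen, was MIRLET7BHG, the host transcript of let-7a-3 and let-7b, with 318 normalized counts with PEN-FFW, 218 with PEN-WT, 180 with PEN-MUT and 165 with PEN. It stood at 1.08 ± 0.13 from PEN-MUT in PEN-FFW, and at 0.92 relative to transcripts of its own high GC content (64.3%). Mature let-7 was not measured: of 12 rows for let-7 family precursors 8 were at the floor throughout, and the highest value in any library was 10.2 normalized counts. The list's median was 0.21 for PEN-FFW against PEN-MUT, 0.14 for PEN-FFW against PEN and 0.12 for PEN-FFW against PEN-WT. It was 0.07 for PEN-WT against PEN-MUT, -0.05 for PEN-WT against PEN and -0.07 for PEN-MUT against PEN. The sign for PEN-WT thus changed with the control. The most abundant genes of the list, for PEN-FFW against PEN-MUT, were the processing enzyme DICER1 (0.06 ± 0.02), KHSRP, which promotes let-7 processing (0.22 ± 0.02), and the exporter XPO5 (-0.03 ± 0.03).

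Of 23 tested let-7 target genes outside the members, 3 were higher at 1.5-fold and 0 lower in PEN-FFW against PEN-MUT (median -0.02), and 1 was higher (FIGN, 0.59 ± 0.20, or 0.48 and under the threshold relative to genes of the same abundance) and 0 lower in PEN-WT against PEN-MUT. The 3, named after their values were seen, were PLAGL2 (0.92 ± 0.06), FIGN (0.88 ± 0.21, or 0.54 and under the threshold relative to genes of the same abundance) and IGF1R (0.59 ± 0.06). The IGF1R value lies within counting error of the threshold (0.58). In PEN-FFW against PEN 2 were higher and 1 lower. The lower one was MYC, a growth-promoting transcription factor, at -0.73 ± 0.03 in PEN-FFW, -0.68 ± 0.03 in PEN-WT and, for the mutated control, -0.51 ± 0.03. Among the most abundant targets, the cell cycle genes CCND2 and CDK6 stood at 0.10 ± 0.01 and -0.05 ± 0.02 from PEN-MUT in PEN-FFW. Over 511 tested genes with an 8-letter match the median PEN-FFW difference from PEN-MUT was 0.01, and over 10380 genes with no match it was -0.01. These groups were not matched: the median UTR had 3442 bases against 1229, and the median GC content was 44.8% against 48.5%. An effect of the matches was therefore not tested.

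For the growth factor axis, the receptor gene IGF1R was expressed although IGF2 was at the floor, with 1292 normalized counts with PEN-FFW, 1292 with PEN-WT, 1052 with PEN-MUT and 1196 with PEN. IGF2R, the receptor that clears IGF2, had 6710 with PEN-FFW, 6770 with PEN-WT, 6680 with PEN-MUT and 7057 with PEN. Of 11 tested genes of IGF signalling, IGF1R was the 1 past 1.5-fold in PEN-FFW against PEN-MUT (9.09% of the list), and 0 passed in any other pair. It stood at 0.59 ± 0.06, within counting error of the threshold (0.58), and is the same gene as in the let-7 target list. This value is after recentring, where the median tested gene of the pair was at -0.30 as deposited. IRS1 and SHC1, adaptors of the receptor, stood at 0.15 ± 0.03 and -0.12 ± 0.03 from PEN-MUT in PEN-FFW.

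Around the other members, of 14 tested imprinted genes 2 were higher at 1.5-fold in PEN-FFW against PEN-MUT (KCNQ1OT1 at 1.95 ± 0.05 and NNAT at 1.09 ± 0.23) and 0 lower, with a median of -0.01. NNAT passed the filter on low counts only through its PEN-FFW value, so its call is no support for the count. KCNQ1OT1, a long noncoding RNA of the imprinted domain next to H19 and IGF2, had 4047 normalized counts with PEN-FFW, 1766 with PEN-WT, 1284 with PEN-MUT and 1538 with PEN. The most abundant of the list besides IGF2R were GNAS (-0.12 ± 0.01) and PEG10 (0.15 ± 0.02). Among 11 tested genes of the albumin locus and its regulators, 2 were higher and 0 lower (median 0.22). One was ZFHX3, a known repressor of AFP, at 1.24 ± 0.05. The other was ZBTB20 (0.74 ± 0.23, or 0.39 relative to genes of the same abundance), which passed the filter on low counts only through its PEN-FFW value. FOXA1 and TBX3, the next most abundant, stood at -0.15 ± 0.07 and 0.14 ± 0.07, and ALB at -0.38 ± 0.18. Of the 11, those above the median gene numbered 9 in PEN-FFW against PEN-MUT, 10 in PEN-WT against PEN-MUT, 9 in PEN-FFW against PEN, 11 in PEN-WT against PEN, 4 in PEN-MUT against PEN and 6 in PEN-FFW against PEN-WT.

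Of 18 tested glypicans and heparan sulphate genes other than GPC3, 0 passed 1.5-fold in PEN-FFW or PEN-WT against PEN-MUT. In PEN-FFW against PEN 1 was higher, the sulphatase gene SULF2 at 0.77 ± 0.22. Relative to genes of the same abundance SULF2 was at 0.45, under the threshold, and the mutated control stood at 0.40 ± 0.22 from PEN. The most abundant, EXT2, NDST1 and HS2ST1, stood at -0.15, 0.37 and 0.00 from PEN-MUT in PEN-FFW. Of 9 tested progenitor markers 0 passed against PEN-MUT in PEN-FFW or PEN-WT. Against PEN 1 was lower with each of the other peptides, the Notch target HES1, at -0.91 ± 0.09 with PEN-FFW, -0.91 ± 0.08 with PEN-WT and -0.72 ± 0.08 with PEN-MUT. NOTCH2 and SOX4 stood at 0.21 and -0.06 from PEN-MUT in PEN-FFW. SALL4, itself an oncofetal transcription factor, stood at 0.08 ± 0.06 from PEN-MUT in PEN-FFW and -0.07 ± 0.05 in PEN-WT. Against PEN it was at -0.24 ± 0.05 with PEN-FFW, -0.40 ± 0.05 with PEN-WT and -0.31 ± 0.05 with PEN-MUT.

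H19 was the member whose place at the 1.5-fold threshold changed with the settings. Relative to genes of the same mean normalized count its PEN-FFW difference was -0.80 from PEN-MUT and -0.88 from PEN, past 1.5-fold (a log2 difference of 0.58), and with a pseudocount of 50 these were -0.18 and -0.25. IGF2BP3 stayed within 1.5-fold in each setting.

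**Figure D5:**
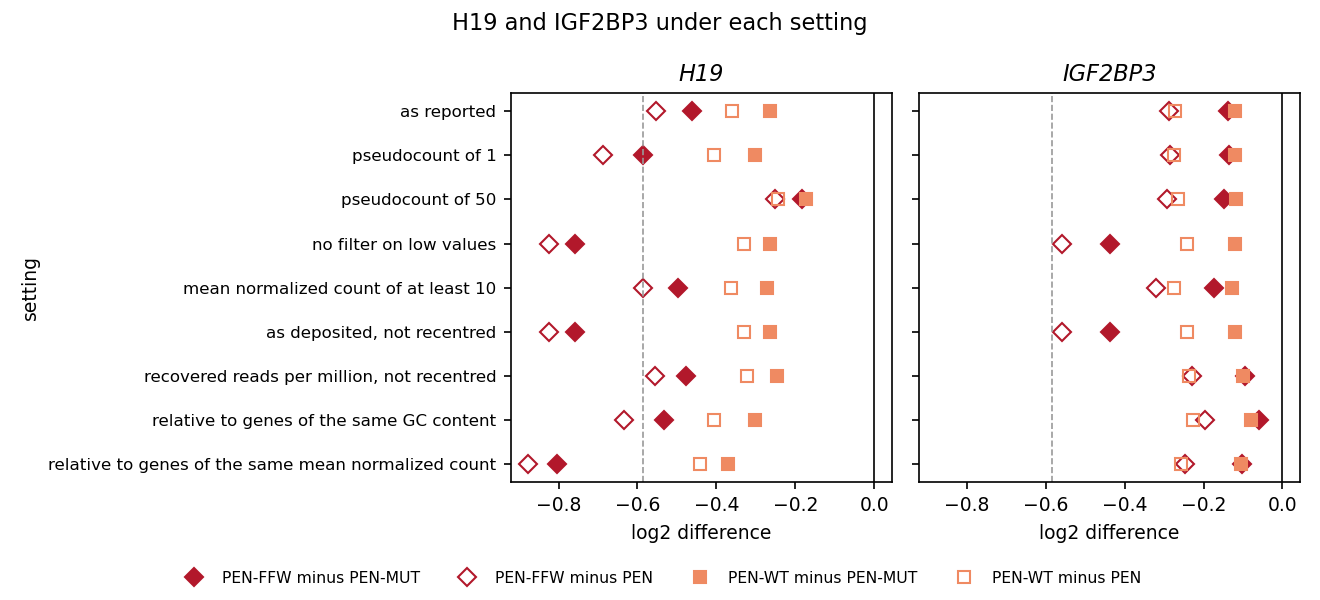
Log2 differences of H19 (left) and IGF2BP3 (right) under 9 settings (rows), for PEN-FFW (diamonds) and PEN-WT (squares) against PEN-MUT (filled) and PEN (open); the dashed line marks 1.5-fold lower. H19 in PEN-FFW lies between -0.80 and -0.18 against PEN-MUT and crosses the line in some rows, whereas every point of IGF2BP3 lies right of it.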

How the data were processed

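RNA-seq of 4 libraries was analysed; the 3 chromatin immunoprecipitation samples are not analysed here. Per the submitters' processing notes and the series' design, STAR 2.4.0i mapped paired-end reads to hg19; featureCounts 1.5.0-p1 is also named. For the strand setting, the annotation and the normalization method, the sources used here give nothing. The deposited log2 values are reads per gene multiplied by 1 factor per library (0.923 for PEN-FFW, 0.776 for PEN-WT, 1 for PEN-MUT and 0.840 for PEN), with products under 5 set to 5: once the log was undone, 100% of values above the floor were whole multiples of the factor, within 0.1 read. Columns were matched to samples by the names in the labels.

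Genes averaging at least 50 normalized counts were tested (12578, 53.0%). The design written for normalized counts was applied after the log was undone. Differences used a pseudocount of 10 and were recentred on the median tested gene. Counting errors assume the Poisson law. The calculation was checked on libraries simulated under that law, on abundant genes only. This tests neither the law itself nor genes as low as H19. Reads are not independent molecules, so intervals cover counting error only. No test between peptides was possible. Lengths, GC content and UTRs came from GENCODE 44 lifted to GRCh37, matched for 20411 genes, 18899 of them by symbol and the rest by RefSeq synonym. Python 3.11.15, numpy 2.4.6, pandas 2.3.3, scipy 1.17.1 and matplotlib 3.10.9 were used.

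The members and gene lists were chosen with earlier results of these data known. From each list the 3 tested non-members of highest mean count were named, with IGF1R, IGF2R, LIN28A, HMGA1, ALB and SALL4, and the 3 nearest profiles for each of 2 members. One gene that this rule names is not reported here.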

Additional observations from a re-analysis of the deposited data

How the results depend on the processing

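No paired analysis was possible because each peptide has 1 library; for the same reason no replicate could be left out. The count of tested members at least 1.5-fold apart was 0 in all 6 pairs as reported. It stayed at 0 under every alternative for PEN-WT against PEN-MUT and PEN, PEN-MUT against PEN, and PEN-FFW against PEN-WT. The first 3 of these pairs also gave 0 with the filter and median taken without PEN-FFW, an alternative chosen after seeing the data. For PEN-FFW against PEN-MUT it became 1 with a pseudocount of 1, with no filter, without recentring, and relative to genes of the same mean normalized count. For PEN-FFW against PEN it became 1 under these 4, with a minimum mean of 10, and relative to transcripts matched for GC content. The 1 gene was H19 each time, with 41 reads in PEN-FFW; the cause was not tested beyond the construction of each setting. With a pseudocount of 50 or with reads scaled to library totals it stayed at 0. Of the 42 single differences, 18 moved by more than their 95% counting interval allows without recentring and 6 changed sign, since this puts back the lower median gene of PEN-FFW. With no filter the numbers were the same. Relative to genes of the same mean normalized count 9 moved and 5 changed sign. Relative to transcripts matched for GC content the numbers were 3 and 5, and with reads scaled to library totals 3 and 6. With a pseudocount of 1 or 50 or a minimum mean of 10, 0 moved and at most 1 changed sign. Low read numbers limit what can be said of AFP and H19, and values at the floor limit what can be said of DLK1 and IGF2. Why DLK1 and IGF2 were at the floor was not tested.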
